A study of Caenorhabditis elegans with 2 samples.

Results

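Binding of ZTF-11 was examined at 36 genes of the epidermis of Caenorhabditis elegans, out of 19973 protein-coding genes on the nuclear chromosomes. The 36 genes were chosen by name for their known roles in the hypodermis and the seam. Earlier results of these data were known when they were chosen. The list held 37 names, of which elt-5 and egl-18 are the same gene. They comprised 12 transcription factors and partners of them and 24 cuticle and junction genes. The cuticle and junction genes were 15 cuticle collagens, 6 genes of the apical matrix and of molting, and 3 genes of junctions, cytoskeleton and cell fusion.

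Chromatin immunoprecipitation and sequencing (ChIP-seq) had been done on whole hermaphrodite L1 larvae of strain OP511, whose genotype is unc-119(tm4063) III with wgIs511. They stably express ZTF-11 fused to a GFP-FLAG tag at its C-terminus. Larvae were collected 6 hours after release from starved synchronization, and the precipitation used an antibody against GFP. There was 1 group with 2 biological replicates, so no conditions could be compared. Signal was summed over all cells of the larva, and the labels do not say in which cells the transgene is expressed. The lists hold no RNA measurement, so the tissue could not be checked against marker levels.

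ZTF-11 is the worm member of the MYT1 family of zinc-finger transcription factors, which are known for repressing non-neuronal genes while neurons form. The worm epidermis consists of the large hypodermal syncytium and of seam cells, which divide in a stem-like way and fuse or differentiate as larvae grow. GATA factors specify these cells, nuclear hormone receptors drive molting, and collagens secreted apically build a fresh cuticle at each larval stage.

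The deposited lists were an IDR list, made of peaks that passed the authors' threshold on the irreproducible discovery rate, and lists of 30000 regions each for the pooled replicates, replicate 1 and replicate 2, which reach far into background. Signal is the authors' own value per region, on a scale that differs between lists, and rank counts from the strongest region of a list. IDR peaks had pooled signals of 66.2 to 1072, and the weakest region of the pooled list had 20.7. A pooled region outside the IDR list was called reproduced where each replicate list had a summit within 100 bp. This held for 6392 of 28125 such regions (22.7%), and the same match held for 1783 peaks of the IDR list (95.1%). Read depth is unknown from these lists.

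No IDR summit lay within 1000 bp of the annotated 5' end of any of the 36 genes. Over all protein-coding genes the share was 8.09%, at which 2.91 of 36 genes would be counted. As a rough guide, a count of 0 was taken to allow up to 3 genes, which is 8.33% of 36. That lies close to the share of all genes, so 0 of 36 was not read as a difference. By the same guide the limit is 25% for the 12 regulators and 12.5% for the 24 cuticle and junction genes. The guide treats chosen genes as independent and is no test. No IDR summit lay inside any of the 36 genes either, beside 2.21% of all protein-coding genes. Their gene bodies span 232732 bp, over which the density in all gene bodies would give 1.89 summits. Since many worm transcripts are trans-spliced, an annotated 5' end need not be where transcription starts. The count within 1000 bp was also 0 in the strongest regions of replicate 1 and of replicate 2, taken in the same number as the IDR peaks.

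Within 5000 bp of the 5' end or inside the gene, 2 of 36 genes had an IDR summit, the cuticle collagens sqt-2 and dpy-17, beside 19.2% of all protein-coding genes. None of the 12 regulators did. Both collagens shape the body through the cuticle, as the names of their mutant forms, squat and dumpy, record. In each case 1 summit lay upstream and 1 downstream, past the end of the short gene. The summit windows, 50 bp either side and on the plus strand of ce11 (RefSeq copy of WBcel235), are printed because they are the strongest sites near any of the 36 genes. A window near egl-18 follows, since that gene was the closest coding gene to its peak. Capitals mark matches to GAGAGA on either strand.
sqt-2, downstream summit, chrII:24576-24676: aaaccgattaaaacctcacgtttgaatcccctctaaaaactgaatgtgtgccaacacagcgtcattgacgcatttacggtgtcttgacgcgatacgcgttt
sqt-2, upstream summit, chrII:18954-19054: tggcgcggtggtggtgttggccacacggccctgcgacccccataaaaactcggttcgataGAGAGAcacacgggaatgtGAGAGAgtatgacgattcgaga
dpy-17, upstream summit, chrIII:5102777-5102877: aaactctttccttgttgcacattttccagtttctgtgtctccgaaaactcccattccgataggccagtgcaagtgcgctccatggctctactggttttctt
dpy-17, downstream summit, chrIII:5108945-5109045: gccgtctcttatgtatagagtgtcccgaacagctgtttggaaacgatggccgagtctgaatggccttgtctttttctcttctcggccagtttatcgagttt
egl-18, upstream summit, chrIV:1895131-1895231: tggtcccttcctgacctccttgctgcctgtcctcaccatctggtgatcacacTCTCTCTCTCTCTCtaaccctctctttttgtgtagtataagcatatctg

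The peak downstream of sqt-2 (gene at chromosome II, 23325 to 24458) was the strongest of the 4, and its summit lay 1301 bp past the 5' end, just outside the 1000 bp range. Its signal was 165 in the pooled list (rank 490), 81.3 in replicate 1 (rank 742) and 86.4 in replicate 2 (rank 292). The summit was intergenic and another coding gene, enee-1, began 40 bp from it. The peak upstream of sqt-2 lay 4321 bp away and had signals of 94.4 in the pooled list, 65.6 in replicate 1 and 27.4 in replicate 2. The coding 5' end closest to it was that of gmeb-1, at 534 bp. Both peaks near sqt-2 were thus present in each replicate, and both lay closer to another gene.

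dpy-17 lies on chromosome III, 5107330 to 5108492. Its upstream peak lay 4503 bp away, 158 bp from the 5' end of F54D8.6, with signals of 98.5 in the pooled list, 63.1 in replicate 1 and 40.3 in replicate 2. The downstream peak lay 1665 bp away, 706 bp from the 5' end of sax-2. Its pooled signal of 66.6 put it at rank 1853, close to the end of the IDR list. It had a signal of 64.1 in replicate 1, while the closest summit of replicate 2 lay 223 bp away with a signal of 16.5 (rank 6781). The downstream peak of dpy-17 was thus strong in replicate 1 and weak and displaced in replicate 2.

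When every IDR summit was given to the closest coding 5' end at any distance, 1 of 36 genes received one, egl-18, beside 8.23% of all protein-coding genes. egl-18 (chromosome IV, 1902322 to 1917840) encodes a GATA factor that maintains the seam cell fate. The summit was intergenic and lay 7141 bp upstream, in a stretch of 21725 bp before the gene that holds no coding gene. The 5' end of a non-coding gene, F55A8.6, lay closer to the summit, at 5954 bp. The peak had signals of 84.4 in the pooled list (rank 1305), 47.6 in replicate 1 (rank 1589) and 39.3 in replicate 2 (rank 993). The window around it holds a run of the GAGAGA motif on the minus strand.

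**Figure D1:**
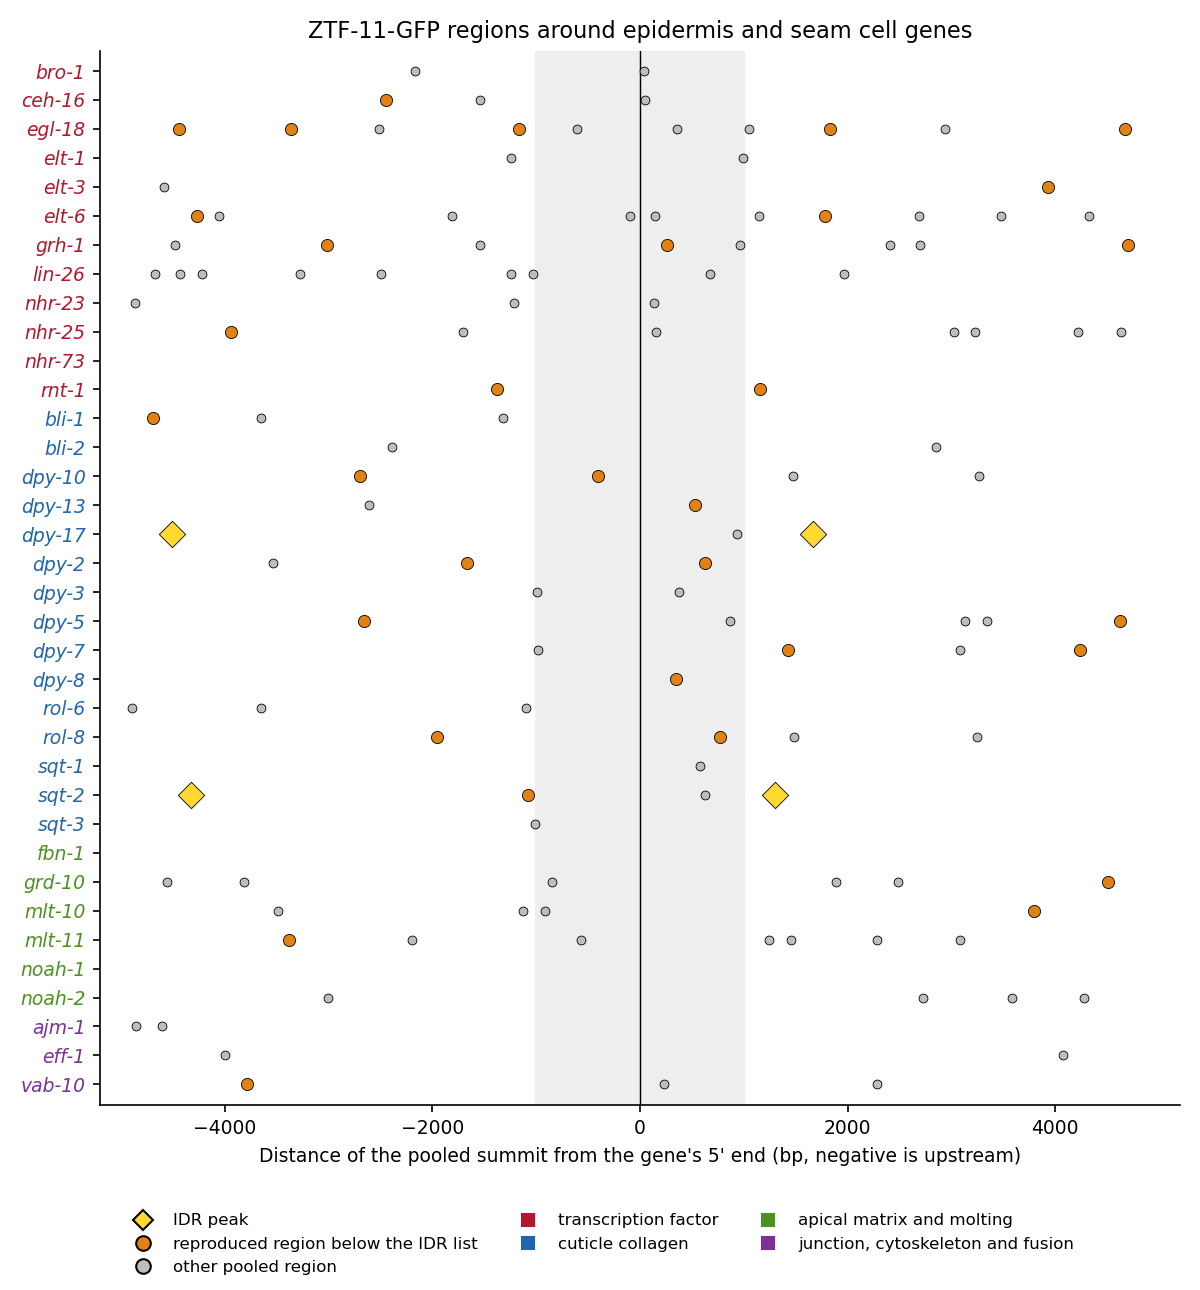
Pooled ZTF-11-GFP regions within 5000 bp of the 5' end of each of the 36 genes, by distance in bp (negative is upstream, grey band within 1000 bp); gene names are coloured by class. Yellow diamonds are IDR peaks, at sqt-2 and dpy-17 alone, orange points are reproduced regions below the IDR list and grey points are other pooled regions. No diamond falls in the grey band.

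The distance from the 5' end to the nearest IDR summit had a median of 21622 bp over the 36 genes and 22434 bp over all protein-coding genes. It ran from 1301 bp at sqt-2 to 103507 bp at elt-1, the GATA factor that specifies epidermal fate. The median was 14464 bp for the cuticle collagens, 24666 bp for the 12 regulators, 31037 bp for the 3 junction, cytoskeleton and fusion genes and 35858 bp for the 6 matrix and molting genes. The ranges of these classes overlapped. This measure was chosen after the data had been seen. With the whole IDR list the median distance of the 36 genes was thus near that of all coding genes. With the IDR peaks above the median signal it was 56070 bp, beside 43585 bp for all protein-coding genes. The 1000 bp range around the 5' ends of the 36 genes held no IDR summit, which was not read as a difference from all genes.

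The replicates placed the nearest strong summit of most genes alike but not of all. For grh-1, the Grainyhead factor of epithelial barriers, the nearest of these strongest regions lay 3018 bp away in replicate 1 and 72041 bp away in replicate 2. For lin-26, a zinc-finger gene needed for epithelial fate, it lay 26537 bp away in replicate 1 and 4404 bp away in replicate 2. With replicate 1 alone, grh-1 joined sqt-2 and dpy-17 within 5000 bp, and with replicate 2 alone, lin-26 joined them.

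**Figure D2:**
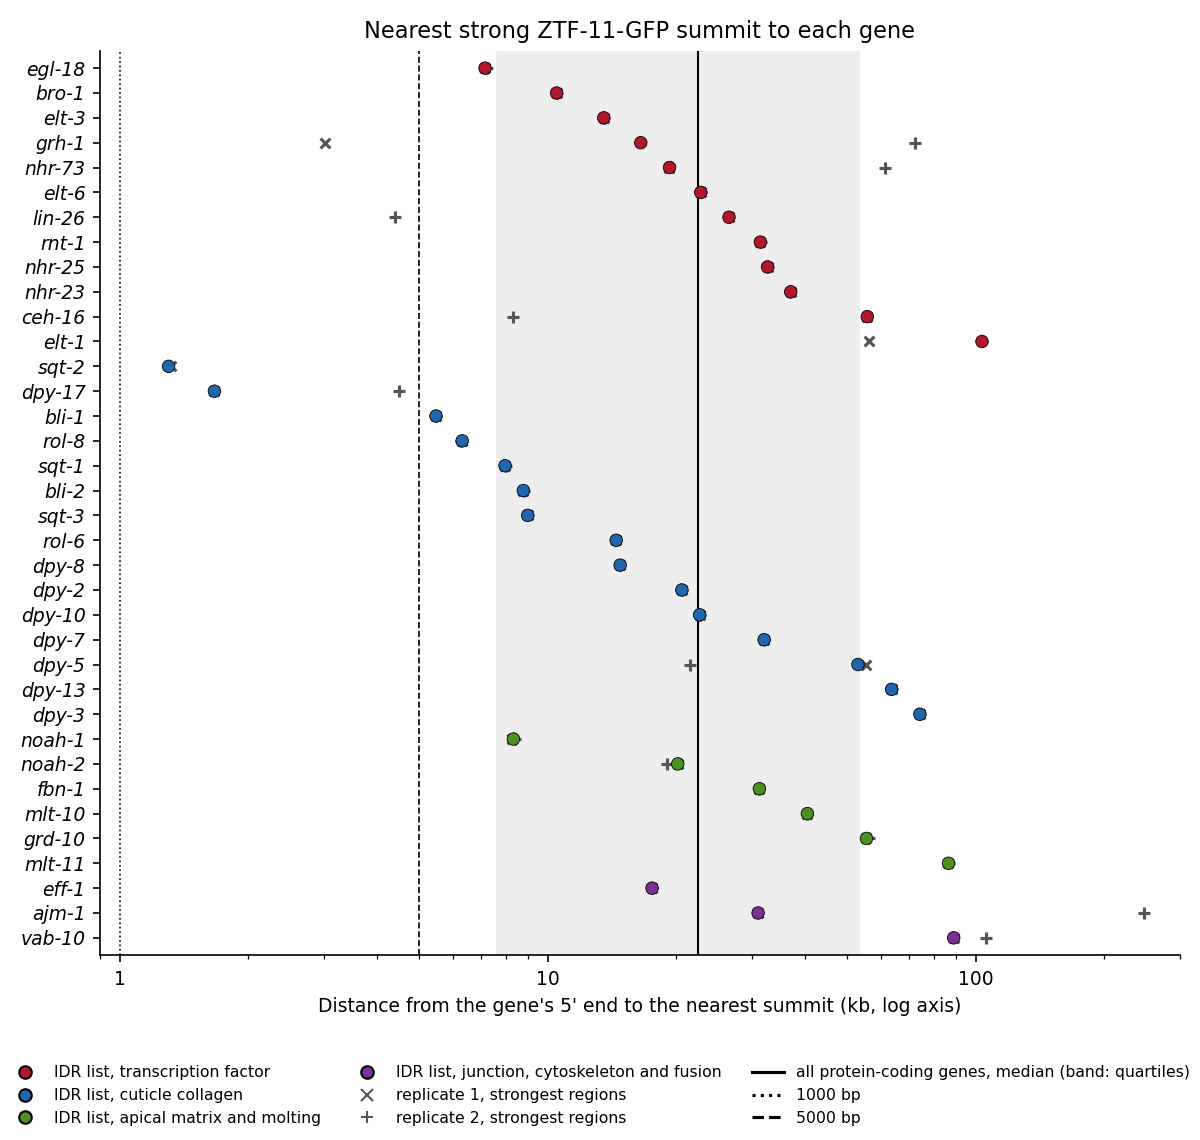
Distance in kb on a log axis from the 5' end of each of the 36 genes to the nearest IDR summit (coloured circles) and to the nearest of as many strongest regions of replicate 1 (crosses) and replicate 2 (plus signs). The vertical line is the median of all protein-coding genes, 22434 bp, and the band spans their quartiles; no circle lies left of the dotted line at 1000 bp.

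Below the IDR list, a reproduced region lay within 1000 bp of the 5' end of 6 of 36 genes, beside 13.3% of all protein-coding genes, at which 4.79 would be counted. They were the collagens dpy-2, dpy-8, dpy-10, dpy-13 and rol-8 and the regulator grh-1. The count was 5 of 15 collagens and 1 of 12 regulators, and 0 in both other classes. Among all 156 genes with a col- symbol, the main collagen family of the worm, it was 26 (16.7%). The collagen count is small, and genes of 1 list are not replicates.

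The strongest of these regions lay in an intron of dpy-2, 630 bp downstream of its 5' end (chromosome II, 6714740 to 6715103). dpy-2, dpy-8 and dpy-10 encode collagens of the annular furrows. The region had signals of 40.7 in the pooled list (rank 4659), 24.3 in replicate 1 and 14.4 in replicate 2. It is printed as the strongest such window, with no motif match.
dpy-2, intronic summit, chrII:6714872-6714972: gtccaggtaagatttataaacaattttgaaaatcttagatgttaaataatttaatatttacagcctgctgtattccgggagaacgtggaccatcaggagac

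dpy-10 is the neighbour of dpy-2, and the same intronic region lay 2695 bp upstream of it. Another region lay 399 bp upstream of dpy-10 and 1666 bp upstream of dpy-2, in the exon of a non-coding RNA gene, T14B4.14. It lies within the coding gene T14B4.19, whose 5' end is closer, at 305 bp. It had signals of 30.6 in the pooled list, 21.3 in replicate 1 and 16.7 in replicate 2. At dpy-8, the summit lay in a coding exon, with 34.8 in the pooled list, 14 in replicate 1 (rank 29564) and 18.6 in replicate 2 (rank 4637). Replicate 1 held the dpy-8 region close to the end of its list.

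At dpy-13, another collagen of body shape, the coding-exon region had 35.6 in the pooled list, 23.7 in replicate 1 and 11.1 in replicate 2. At rol-8 the coding-exon region had 36.3 in the pooled list, 23.1 in replicate 1 and 9.59 in replicate 2 (rank 29642). The rol-8 region was thus near the end of the replicate 2 list. At grh-1 the region lay 265 bp downstream, again in a coding exon, with 32.7 in the pooled list, 19.1 in replicate 1 and 19 in replicate 2.

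Of these 6 summits, 4 lay in coding exons (66.7%), beside 31.9% of the 2377 reproduced summits below the IDR list within 1000 bp of any coding 5' end. For genes with a col- symbol it was 20 of 26. The pooled ranks of the 6 regions ran from 4659 to 10996, and their deposited q-values were all above 0.05.

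The count of 6 depended on how 5' ends and matches were defined. With the 5' end of any annotated transcript it was 10 of 36, beside 15.5% of all protein-coding genes, since ajm-1, egl-18, elt-3 and vab-10 have regions near internal starts. The elt-3 region, in a coding exon of this hypodermal GATA factor, lay 65 bp downstream of an internal start and 3934 bp from the first. With summits matched within 250 bp it was 11 of 36, beside 20.2%, and 5 of these 11 were regulators.

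Within 1000 bp, the regions that the looser match added hold the strongest ones at the regulators. At nhr-25, a nuclear receptor of the SF-1 family that acts in molting and the seam, a region 151 bp inside the gene had a pooled signal of 56.3 (rank 2363). The closest summits lay 133 bp away in replicate 1 (signal 27.8) and 153 bp away in replicate 2 (signal 25.6). At egl-18, a region in an intron, 362 bp downstream, had a pooled signal of 53.0 (rank 2627), with summits 1 bp away in replicate 1 (signal 35.4) and 127 bp away in replicate 2 (signal 22.4). The nhr-25 region thus had no summit within 100 bp in either replicate, and the egl-18 region had none in replicate 2.

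At elt-1 a region in the 5' UTR, 996 bp downstream, had a pooled signal of 39.0, with summits 56 bp away in replicate 1 (signal 20.4) and 179 bp away in replicate 2 (signal 11.8). At elt-6, the GATA gene next to egl-18, a region 94 bp upstream had 34.9 in the pooled list and a summit at the same base in replicate 1, whereas the closest one in replicate 2 lay 1913 bp away. At nhr-23, the nuclear receptor that drives molting, a region 138 bp downstream had 33.7, with the closest summit of replicate 2 at 1348 bp. The elt-6 and nhr-23 regions were thus seen in replicate 1 alone.

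Any pooled region at all lay within 1000 bp of 24 of 36 genes (66.7%), beside 50.4% of all protein-coding genes. It did so for 9 of 12 regulators and 15 of 24 cuticle and junction genes. The best of them had a median rank of 9986.5 over the 24 genes and 11225 over the 10075 protein-coding genes with one. The median was 8229 for the regulators and 11555 for the cuticle and junction genes, and the ranges overlapped. In replicate 1 alone the median rank was 12966 for the epidermal genes and 11368 for all protein-coding genes. In replicate 2 alone it was 10514 and 11624, so the direction differed between the replicates.

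The 12 genes with no pooled region within 1000 bp were the matrix genes fbn-1, noah-1 and noah-2, the collagens bli-1, bli-2, rol-6 and sqt-3, ajm-1, eff-1, elt-3, nhr-73 and rnt-1. Here fbn-1 is related to fibrillin, the noah genes encode zona pellucida domain proteins of the apical matrix, eff-1 is the fusogen of the hypodermis and rnt-1 is the RUNX factor of seam divisions. noah-1 and nhr-73, a nuclear receptor gene, had no pooled region within 5000 bp or inside the gene either.

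**Figure D3:**
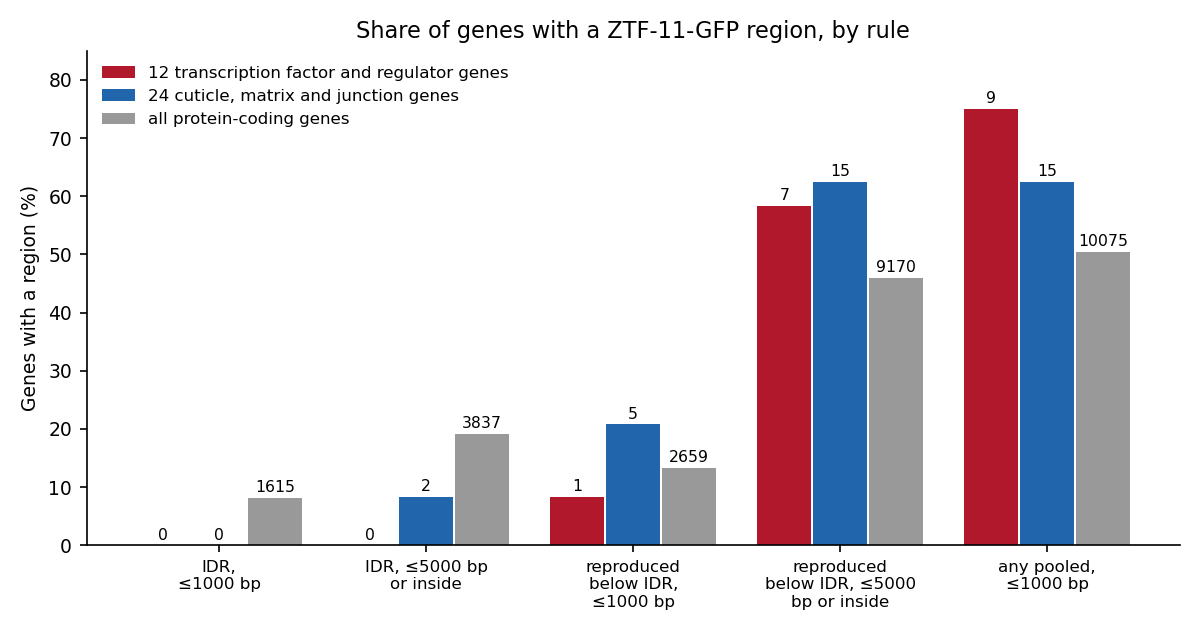
Percentage of genes with a ZTF-11-GFP region by rule, for the 12 regulators (red), the 24 cuticle, matrix and junction genes (blue) and all 19973 protein-coding genes (grey), with the number of genes above each bar. Both sets of epidermal genes stand below the grey bar for IDR summits and above it for any pooled region within 1000 bp, where they reach 9 and 15 genes.

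Within 5000 bp or inside the gene, 22 of 36 genes (61.1%) had a reproduced region below the IDR list, beside 45.9% of all protein-coding genes. The count was 7 of 12 regulators and 15 of 24 cuticle and junction genes. The regulators had a median length of 5379 bp and the cuticle and junction genes one of 1624 bp, beside 2027 bp in all protein-coding genes. Inside their bodies the density was 10.5 such regions per 100 kb for the regulators and 9.58 for the cuticle and junction genes, beside 6.41 in all gene bodies. Pooled regions of any kind were denser there too, at 55.2 and 36.4 per 100 kb, beside 29.9 in all gene bodies. The densities of reproduced regions rest on 8 inside regulators, several of them in egl-18, and 15 inside cuticle and junction genes. Most of the reproduced regions inside cuticle and junction genes lay in the long genes vab-10 and ajm-1. Together the 22 genes had 41 distinct regions, of which 16 lay in coding exons, 11 between genes and 10 in introns. Their pooled signals are at or below 64.5, and 1 of the 41 had a deposited q-value under 0.05, as did 317 of all 6392.

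That region lay 3010 bp upstream of grh-1 (chromosome I, 1270983 to 1271346), and it was the closest of all to the IDR list. Its signal was 64.5 in the pooled list (rank 1942), 42.7 in replicate 1 (rank 1847) and 20.9 in replicate 2 (rank 3268). The closest coding 5' end was that of Y48G8AR.8, at 351 bp. The grh-1 region thus ranked within the length of the IDR list in replicate 1 and outside it in replicate 2.

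egl-18 had 6 reproduced regions below the IDR list, 3 upstream and 3 inside the gene, with pooled signals of 26.5 to 46.5. The strongest, 4444 bp upstream, had 26.8 in replicate 1 and 17.1 in replicate 2. One inside its last part was shared with elt-6, 4270 bp upstream of that gene. nhr-25 had 1 region, 3935 bp upstream, with 45.9 in the pooled list, 26.6 in replicate 1 and 19.3 in replicate 2, and no coding 5' end lay closer to it.

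Of the other regulators, rnt-1 had 2 regions, at 1152 bp downstream (39.5 in the pooled list) and 1374 bp upstream (32.6), and ceh-16, the engrailed homologue of the seam, had 1 at 2442 bp upstream (28.1). elt-1, lin-26, nhr-23, nhr-73 and bro-1, which encodes the partner of the RUNX factor, had none.

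Among the cuticle and junction genes, vab-10, a spectraplakin gene and the longest of the 36 at 57568 bp, had 8 regions with pooled signals of 27.8 to 38.8. ajm-1, which encodes an apical junction protein, had 2 deep inside the gene (34.5 and 34 in the pooled list), the first of them 2 bp from the 5' end of a tRNA gene. grd-10, a hedgehog-related gene active in the seam, had the strongest, 49.1 in the pooled list and 4510 bp downstream, past the gene end and closest to F58E2.5. mlt-11, a gene of the molting cycle, had 39.0 at 3383 bp upstream, and sqt-2 had 41.4 at 1078 bp upstream.

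**Figure D4:**
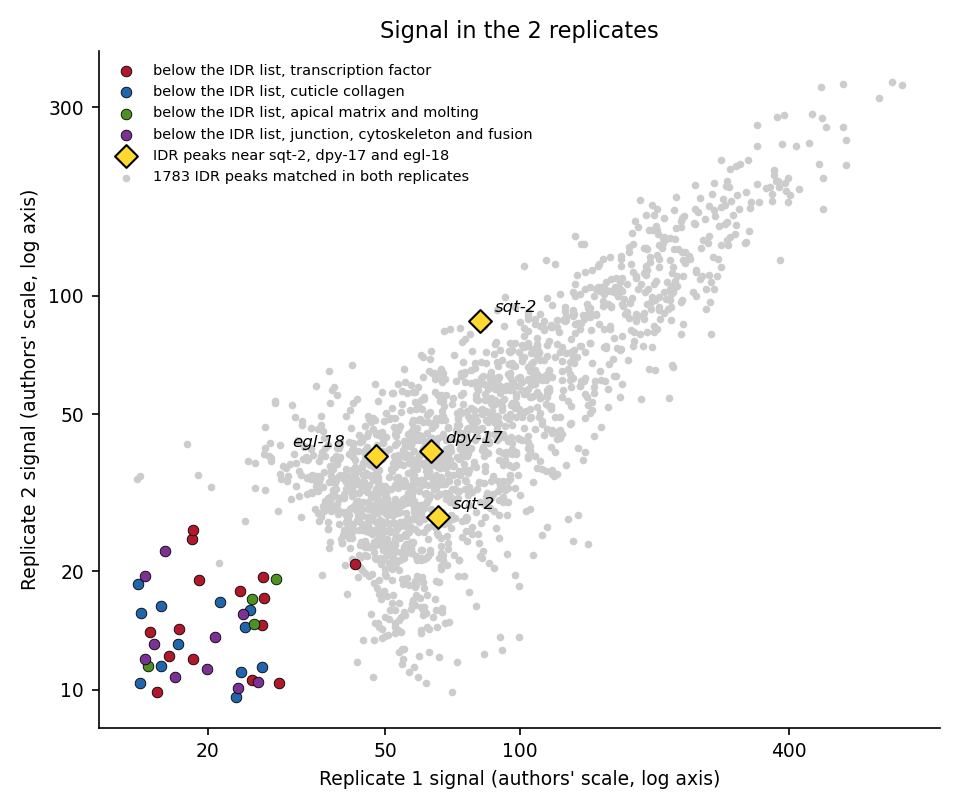
Signal in replicate 1 against replicate 2, on the authors' scale with log axes, for the 41 reproduced regions below the IDR list at the 36 genes (circles, by class), the IDR peaks near sqt-2, dpy-17 and egl-18 (yellow diamonds) and 1783 IDR peaks matched in both replicates (grey). The circles fill the low corner of both axes, apart from the grh-1 region at 42.7 and 20.9, while the diamonds lie among the grey points; the downstream peak of dpy-17 has no match within 100 bp in replicate 2 and is not drawn.

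Neighbouring genes were counted as well, since an IDR summit between divergent genes counts for both. No other coding 5' end lay within 2000 bp of 26 of the 36 genes. Among them 0 of 26 had an IDR summit within 1000 bp, beside 4.44% of the 10526 protein-coding genes of that kind. A reproduced region below the IDR list lay within 1000 bp of 3 of 26, beside 12.3%. This split was also chosen after the data had been seen.

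Motifs were counted within 50 bp of the summits on both strands, and none of the 4 motifs contains another. The 4 motifs were known from an earlier look at these data, so their shares at summits are no independent evidence. GAGAGA was in 1 of the 4 IDR windows near sqt-2 and dpy-17, beside 23.8% of all IDR windows, while GGCGGG, CTGCGTCT and AAGTT, which is the core known for the MYT1 family, were in none. Among the 41 regions below the IDR list, AAGTT was in 10 (24.4%), beside 24.8% of all 6392, and GAGAGA was in 7 (17.1%), beside 9.97%. CTGCGTCT was in 2 (4.88%), beside 1.78%, and GGCGGG in 1 (2.44%), beside 3.43%. These small counts moved with the window. Within 25 bp of the summits GAGAGA was in 3 (7.32%), beside 5.27%, and CTGCGTCT in 0, whereas within 100 bp CTGCGTCT was in 5 (12.2%), beside 3.55%, and GGCGGG in 3 (7.32%), beside 6.32%. Both windows with CTGCGTCT within 50 bp also held GAGAGA, read on the other strand, and the matches overlap at their ends. They are printed for that reason, with the matches in capitals.
ajm-1, internal summit, chrX:9089675-9089775: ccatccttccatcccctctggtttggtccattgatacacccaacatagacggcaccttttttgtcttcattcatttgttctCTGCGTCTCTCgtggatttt
egl-18, internal summit, chrIV:1906943-1907043: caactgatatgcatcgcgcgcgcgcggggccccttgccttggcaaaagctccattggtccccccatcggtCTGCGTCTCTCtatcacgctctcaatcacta

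The ajm-1 window had signals of 34 in the pooled list, 23.4 in replicate 1 and 10.1 in replicate 2, and the egl-18 window had 42.2 in the pooled list, 18.5 in replicate 1 and 24.1 in replicate 2. In the promoters of the 36 genes, from 250 bp before to 50 bp after the 5' end, AAGTT was in 30 (83.3%), beside 69.1% of all protein-coding genes. GAGAGA was in 12 (33.3%), beside 21.8%, GGCGGG in 5 (13.9%), beside 6.48%, and CTGCGTCT in 3 (8.33%), beside 3.54%. These counts are small and come from a chosen list. Base composition was not allowed for, and the differences were not tested. None of the 36 promoters had an IDR summit, as given above.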

How the data were processed

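The members and all gene lists were chosen with earlier results of these data known. Region lists on ce11 were used as deposited by the authors. They had called regions on each replicate and on pooled alignments with a control alignment, and derived the IDR list from these, per the text files that came with the samples. Which caller and aligner were used, and at what IDR threshold, is not given in the sources used here. A control library was not analysed here. The deposited signal per region ranked regions within a list, and the deposited −log10 q-value was read as given. Summits are the deposited start plus offset. Genes and 5' ends came from Ensembl 115, sequence from RefSeq, both WBcel235. Distances, matches and motifs were computed with Python 3.11.15, pandas 2.3.3, numpy 2.4.6 and pysam 0.24.0, and the counting was checked on simulated data. With 1 group and a chosen gene list, no test was made. Counts stand beside the same rule over all protein-coding genes. Named genes are those with an IDR summit in the wider range, those with the strongest reproduced regions per class, and those without a region within 1000 bp. Others, such as nhr-25, egl-18, elt-1 and the strongest regions in the wider range, were named after their values were seen. Alternatives were other distances, matches, thresholds, start definitions, windows and either replicate alone.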

Additional observations from a re-analysis of the deposited data

How the results depend on the processing

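The count of genes with an IDR summit within 1000 bp was 0 under each alternative except a range of 2000 bp, which gave 2, sqt-2 and dpy-17. The count of 2 within 5000 bp or inside the gene was 9 within 10000 bp, beside 30.1% of all protein-coding genes. It was 1 with the IDR peaks above the median signal, beside 11.1%, and 3 with either replicate alone, beside 18.8%. It was 0 when a summit counted for its nearest gene alone, beside 7.92%. With no limit of distance on that rule, chosen after the data were seen, it was 1 (egl-18), beside 8.23%. The count of 6 genes with a reproduced region below the IDR list within 1000 bp was 10 with the 5' end of any transcript, 3 within 500 bp, 11 within 2000 bp and 11 with summits matched within 250 bp. One replicate alone allows no matching, and its regions ranked below the length of the IDR list gave counts of 17 to 24 within 1000 bp and 33 to 34 in the wider range, beside 46.6% to 47.0% and 91.9% to 92.5% of all protein-coding genes. The median best rank was 8229 within 500 bp and 7853 within 2000 bp, with no value over all protein-coding genes set beside them. With one replicate alone it was 10514 to 12966, beside 11368 to 11624 for all protein-coding genes. The median distance to the nearest IDR summit was 21079 to 21622 bp with one replicate alone and 56070 bp with the IDR peaks above the median signal, beside 43585 bp for all protein-coding genes. Among alternatives for the main values 17 of 39 moved, and among those for single classes and motifs 24 of 71 moved. Where a range or match was widened or fewer peaks were kept, that construction sets the direction; the cause was not tested elsewhere. Depth is unknown, and the region lists reach into background, so a weak region may be noise.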

Other observations

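Other lists of epidermal genes held some with an IDR summit within 1000 bp, at shares of 8.33%, 8.7% and 5.08%, beside 8.09% of all protein-coding genes. Of 24 other epidermal regulators 2 did, myrf-1, a membrane-bound transcription factor of larval development (pooled signal 173), and cki-1, a cyclin-dependent kinase inhibitor (77.7). Of 23 other junction and hemidesmosome genes 2 did, spc-1, the alpha-spectrin gene (196), and hmp-1, the alpha-catenin gene (74.4). Of 59 other cuticle, matrix and molting genes 3 did: the tubulin gene tba-2 (220), pdi-2, whose product takes part in collagen processing (105), and the collagen bli-6 (83.7), whose peak lay closer to hrpf-2. The counts were 0 of 34 neuronal terminal selectors, 0 of 20 transcription factors of muscle, intestine and pharynx, 5 of 16 heterochronic genes and 5 of 156 genes with a col- symbol. The heterochronic genes were nhl-2 (656), whose peak lay closer to tag-340, puf-9 (471), lin-28, ain-1 (194) and lin-66 (165). The lists share some genes. Of the 24 other epidermal regulators, elt-7 is also in the list for muscle, intestine and pharynx. Of the same 24, vab-7 and nhr-67 are also among the neuronal selectors, and lin-29, blmp-1 and hbl-1 among the heterochronic genes. The share of these 24 is thus not one of epidermal genes alone. All these lists were chosen with earlier results of these data known, and the differences between them were not tested.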
